A study of Saccharomyces cerevisiae with 90 samples.

Results

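The genes described here encode the assembly factors that turn ribosomal RNA and ribosomal proteins into ribosomal subunits in Saccharomyces cerevisiae. They were taken by symbol: every gene named UTP, NOP, RRP, NOC, NSA, ENP, DHR or RLP with a number, together with KRE33, BMS1, DIP2, NUG1 and SOF1. The rule used no measured value and found 68 genes among the 5449 yeast genes measured. Each of the 68 has a single probe set, none of which is marked as sharing probes with other sequences, and none lay under the background limit on any array. Assembly factors with other symbols, such as PWP2 or TSR1, are outside the rule and are given beside it as separate lists.

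The series asked how yeast cells respond to contact with a solid surface, through a mucin at the cell surface and a MAP kinase pathway. RNA was measured on 90 Affymetrix arrays in 29 groups, 28 of 3 arrays and 1 of 6. A PGAL1-FLO11 strain, in which the GAL1 promoter should drive the adhesin gene FLO11, was grown for 6 h on agar and in liquid in both SG and SD. Kss1K42R, a tec1 knockout, a flo11 knockout and an msb2 knockout were grown for 6 h on SD agar and in SD liquid, as were cells with the plasmids pRS316-MSB2* and pRS313-STE11-4 and with the plasmids pRS316 and pRS313 alone. Wild-type cells were grown for 6 h on agar or in liquid in SLAD and SG, and on agar, on gelatin or in liquid in SD. Wild-type cells at 0 h were sampled from SD agar (the group of 6) and from SD liquid. SD, SLAD and SG are synthetic yeast media commonly made with glucose, with little ammonium and with galactose, although the labels give only the abbreviations. The strain background, the ploidy and whether the 3 arrays of a group came from separate cultures are not given, and a p value here therefore speaks only of how far these particular arrays spread, which may be technical. In a culture, less of an RNA per cell and fewer cells that hold it cannot be told apart.

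All values are log2 signals, and a change is a difference of log2 signals, so that 1 stands for 2-fold. Rose and fell are used of genes with an adjusted p under 0.05 in limma's moderated test over all arrays. A gene said not to differ or not to change between conditions did not pass that test. This does not show equal levels, since the test pools the spread of all arrays. Within a group the standard deviation of a gene had a median of 0.156 log2. The label checks held for the knockouts: TEC1 averaged 5.67 on agar in the tec1 knockout, against 9.92 in wild-type, and MSB2 averaged 4.99 in the msb2 knockout, against 12.77 with pRS316 and 12.65 in wild-type. FLO11 averaged 6.77 in the flo11 knockout on SD agar, against 14.81 in wild-type. In PGAL1-FLO11 cells in SD, however, FLO11 averaged 14.50 on agar and 10.64 in liquid while GAL1 averaged 8.0 and 8.33, so FLO11 did not follow GAL1 there, and those arrays are given below as the arrays labelled PGAL1-FLO11 in SD. URA3, the marker of pRS316, averaged 4.40 in the msb2 knockout on agar, against 13.44 with pRS316 and 4.70 in wild-type, so the msb2 knockout and its pRS316 control differ in the plasmid marker as well as in MSB2.

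Ribosome assembly begins in the nucleolus, where RNA polymerase I transcribes a long precursor and large protein complexes bind it as it emerges. The UTP-A, UTP-B and UTP-C complexes and the U3 snoRNP build the 90S particle from which the small subunit forms, other factors fold and cut the precursor of the large subunit, snoRNPs guide ribose methylation and pseudouridine formation in the RNA, and the RNA exosome trims and degrades the pieces. In yeast the genes of these factors form a large co-regulated set that is high in fast-growing cells and low in stress, under regulators that include Sfp1, Dot6, Tod6 and Stb3. By role, the 68 genes comprise 6 of UTP-A, 5 of UTP-B, 3 of UTP-C, 5 snoRNP proteins, 21 other factors of the 90S particle and the small subunit, 21 factors of the large subunit and 7 exosome subunits.

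The levels of the 68 genes moved together over the 29 groups. For 55 of them, the correlation of the group means with the median of the other members was over 0.8 across the 29 groups. For none was it under 0.5. This is a description, and the points share arrays and scaling. Wild-type SG liquid stood apart, with a mean member median of 10.06, against 11.38 to 12.23 in the other groups. The correlations without that group, and those of all genes, are not given, so they may rest largely on it. RRP7, a UTP-C protein, followed the others least, with a correlation of 0.58. Between its lowest and its highest group mean a member ranged over 2.05 log2 (median of the 68), against 1.28 for all genes tested. DHR2, a helicase of small subunit assembly, ranged most, over 3.55, and KRE33, the acetyltransferase of 18S rRNA, over 3.09. The exosome subunits ranged least, with a median of 1.34, and RRP42, a subunit of the exosome ring, had the smallest range of all at 0.93.

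The same groups were extreme for most members. Wild-type cells in SG liquid held the lowest mean of 64 of the 68 genes. Wild-type cells on SLAD agar held the highest mean of 41, and the arrays labelled PGAL1-FLO11 on SD agar the highest of 15. No member was highest in SG liquid of either strain.

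**Figure D1:**
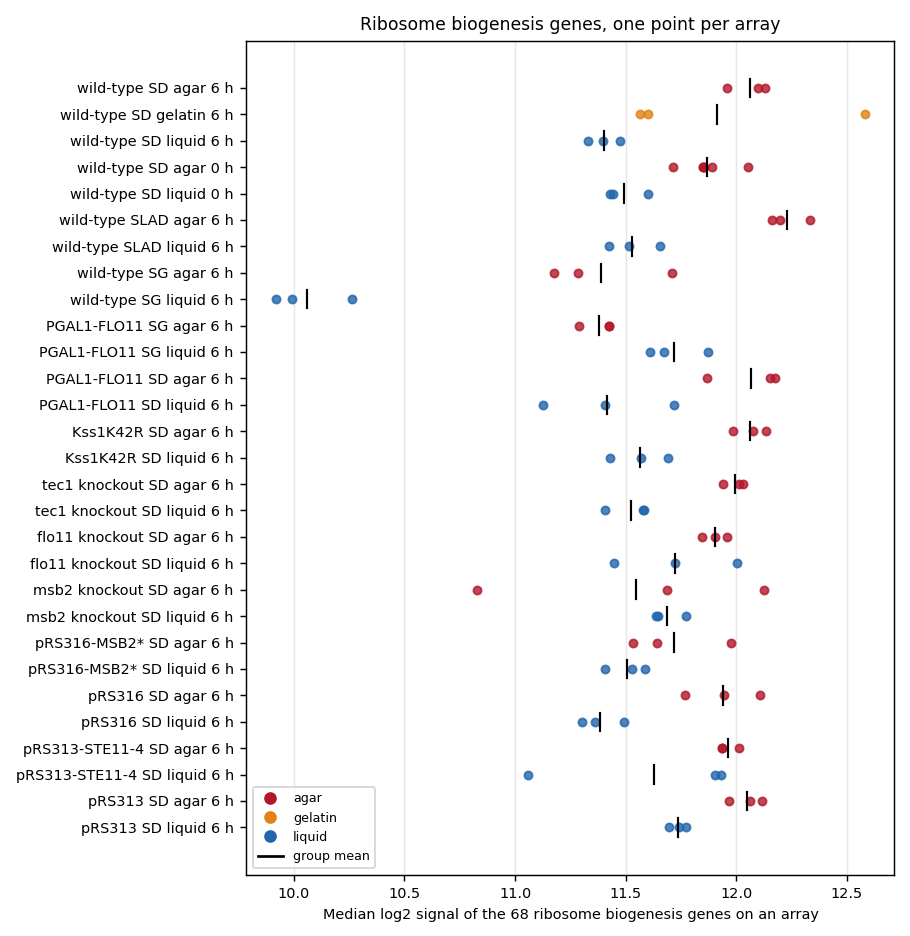
Median log2 signal of the 68 ribosome biogenesis genes on each array (x axis), by group (y axis), with red points for agar, orange for gelatin and blue for liquid, and a black bar at the group mean. The 3 arrays of wild-type in SG liquid sit lowest, at 9.92 to 10.26, and array A of SD gelatin highest, at 12.58.

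In wild-type cells in SD, the genes were higher on agar than in liquid. The test passed for 56 of 68 as higher and for none as lower, where 30.8% of all genes rose and 21.1% fell. The median change of the 68 was 0.58 log2 (quartiles 0.46 and 0.79), against 0.09 for all genes tested. At least 2-fold changes were found in 3 members, RRP36 of UTP-C and the large subunit factors RRP15 and RRP14, and in 1.73% of all genes. For 66 of the 68 all agar arrays lay above all liquid arrays, as they did for 40.3% of all genes.

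RRP36 had 8.46, 8.31 and 7.81 on agar, against 7.19, 7.09 and 6.67 in liquid, a change of 1.21 (SE 0.36, adjusted p = 0.0039). RRP15 had 10.97, 10.89 and 10.82 on agar, against 9.79, 9.91 and 9.66 in liquid. RRP14 had 10.24, 10.31 and 10.22 on agar, against 9.25, 9.26 and 9.04 in liquid. For all 3 genes the substrates were well apart, although over all groups they were also among the members with the largest spread between replicates, with pooled SDs of 0.45, 0.42 and 0.42. UTP14, which activates a helicase of the 90S particle, changed by 0.98 (SE 0.30) and NOP15, an RNA-binding factor of the large subunit, by 0.93 (SE 0.29).

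Among the core factors, KRE33 had 12.96, 12.91 and 12.80 on agar, against 12.39, 12.44 and 12.35 in liquid, a change of 0.50 (SE 0.12). NOP56, a core protein of box C/D snoRNPs, had 13.18, 13.30 and 13.19 on agar, against 12.74, 12.74 and 12.77 in liquid, a change of 0.47 (SE 0.15). RLP24, which holds the place of a large subunit protein during assembly, had 13.37, 13.34 and 13.16 on agar, against 12.40, 12.46 and 12.35 in liquid. In each of these the agar arrays lay above the liquid arrays by more than the spread within either group. BMS1, a GTPase of the 90S particle, changed by 0.44 and NUG1, a GTPase of large subunit export, by 0.43.

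By role, the test passed for 4 of 6 UTP-A genes (median change 0.44), 3 of 5 UTP-B genes (0.54), 3 of 3 UTP-C genes (0.54), 4 of 5 snoRNP genes (0.47), 18 of 21 other small subunit factors (0.69), 18 of 21 large subunit factors (0.63) and 6 of 7 exosome genes (0.54). Among the 12 that did not pass, RRP42 changed by -0.01 (SE 0.09) and NOP1, the methyltransferase of box C/D snoRNPs, by 0.03 (SE 0.06). NOP1 had 14.71, 14.71 and 14.67 on agar, against 14.63, 14.69 and 14.66 in liquid. It is the brightest member, reaching 14.78, and 99% of an array's probe sets lay under a limit that ran from 14.87 to 14.97. UTP10, a large scaffold of UTP-A, had the smallest change among those that passed, 0.22 (SE 0.10).

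Genes that make or use the same machinery and lie outside the rule were also mostly higher on agar. Of 11 genes of RNA polymerase III, 11 rose, and of 15 of RNA polymerase I, 10 rose, with RPA34 at 0.94 and the initiation factor RRN3 at 0.76. Of 39 other small subunit factors, 36 rose, TSR2 by 1.12 and CMS1 by 1.07, and of 52 other large subunit factors 43 rose and 1 fell, TIF6 at -0.21. Cytosolic ribosomal protein genes changed little: 63 of 128 rose and 4 fell, with a median of 0.10, and their median signal on these arrays was 14.90 to 14.95 on agar and 14.82 to 14.88 in liquid, near that limit. Among regulators, DOT6, a repressor of ribosome biogenesis genes, fell by 1.11 (SE 0.14) and its paralog TOD6 rose by 0.76 (SE 0.28). Stress genes that Msn2 and Msn4 activate were lower: 9 of 20 fell and none rose, and the part of stress in the members' change was not tested.

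On gelatin the count depended on a single array. Against SD liquid, 45 of 68 genes rose and none fell, where 15.6% of all genes rose and 21.6% fell, and the median change was 0.48. But the median signal of the 68 was 12.58 on gelatin array A, against 11.56 and 11.60 on arrays B and C, and the liquid arrays lay between 11.33 and 11.48. Without array A, 6 genes passed as higher, with a median change of 0.16. Without SD liquid array C, 22 passed. A limma fit of the gelatin and liquid arrays alone passed none of the 68.

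Array A did not raise all members evenly. RRP14 had 12.14 on array A, against 9.74 and 9.88 on B and C, and NOP16, a large subunit factor, had 12.45, against 10.04 and 9.97. NOC4, which forms a complex with NOP14 in small subunit assembly, had 12.49 on array A, against 13.11 and 12.84 on B and C. RRP42 had 12.34, against 12.97 and 12.86, and so these members were lower on the array where most were high. Agar against gelatin showed no member past the test in either direction, with all 3 gelatin arrays (limma; none at an unadjusted p under 0.05 either; of all genes, 10.6% were higher and 1.82% lower). Without array A, 38 of the 68 were higher on agar than on gelatin.

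In SLAD, 46 of 68 genes were higher on agar than in liquid and 2 were lower, where 39.3% of all genes rose and 33.6% fell. The median change was 0.60, against 0.07 for all genes, and 12 members rose at least 2-fold, as did 11.2% of all genes. The largest changes were in large subunit factors: RRP14 at 1.36, RRP15 at 1.31, NOP13 at 1.28 (SE 0.20), RRP17 at 1.25 and NOP7, a scaffold of early large subunit particles, at 1.18. NOP7 had 12.34, 12.16 and 12.26 on SLAD agar, against 11.11, 11.04 and 11.06 in SLAD liquid. All 5 snoRNP genes rose, NOP1 by 0.26 and NOP56 by 1.07.

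The 2 genes that fell were NOC4 and the exosome subunit RRP46. NOC4 had 12.73, 12.70 and 12.72 on SLAD agar, against 13.25, 13.19 and 13.21 in SLAD liquid, a change of -0.50 (SE 0.16, adjusted p = 0.0047). RRP46 had 12.20, 12.13 and 12.17 on SLAD agar, against 12.46, 12.41 and 12.40 in SLAD liquid, a change of -0.26 (SE 0.12, adjusted p = 0.048). In both genes the difference was small but the 2 sets of arrays did not overlap. RRP4, a cap subunit of the exosome, changed by 0.01, and the ring subunits RRP43 and RRP45 rose by 1.06 and 0.93.

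In wild-type cells in SG the difference between agar and liquid was larger and covered nearly the whole set. The member median averaged 11.39 on SG agar and 10.06 in SG liquid in wild-type, against 11.38 and 11.72 in PGAL1-FLO11. In wild-type the test passed for 66 of 68 genes as higher on agar and none as lower. Of all genes, 34.9% rose and 29.7% fell. The median change was 1.29, against 0.04 for all genes, and 51 members rose at least 2-fold, as did 7.95% of all genes. KRE33 had 12.42, 12.08 and 11.97 on SG agar, against 9.93, 9.93 and 9.69 in SG liquid, a 4.95-fold difference. NOP13 rose by 2.20, DHR2 by 1.96, NOP14 by 1.91 and RRP1, a large subunit factor, by 1.82.

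RRP7 and NOP19, a small subunit factor, did not pass, and the exosome genes rose least. RRP7 had 11.14, 10.73 and 10.85 on SG agar, against 10.67, 10.45 and 11.01 in SG liquid, and the 2 groups overlapped. All 7 exosome genes rose, with a median of 0.49, and the smallest changes were those of RRP42 at 0.20 and RRP46 at 0.30. The largest was that of RRP40, a cap subunit, at 0.87. Outside the set, 11 of 11 RNA polymerase III genes rose, 126 of 128 ribosomal protein genes rose with a median of 0.53, and 19 of 20 stress genes fell with a median of -2.46.

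**Figure D2:**
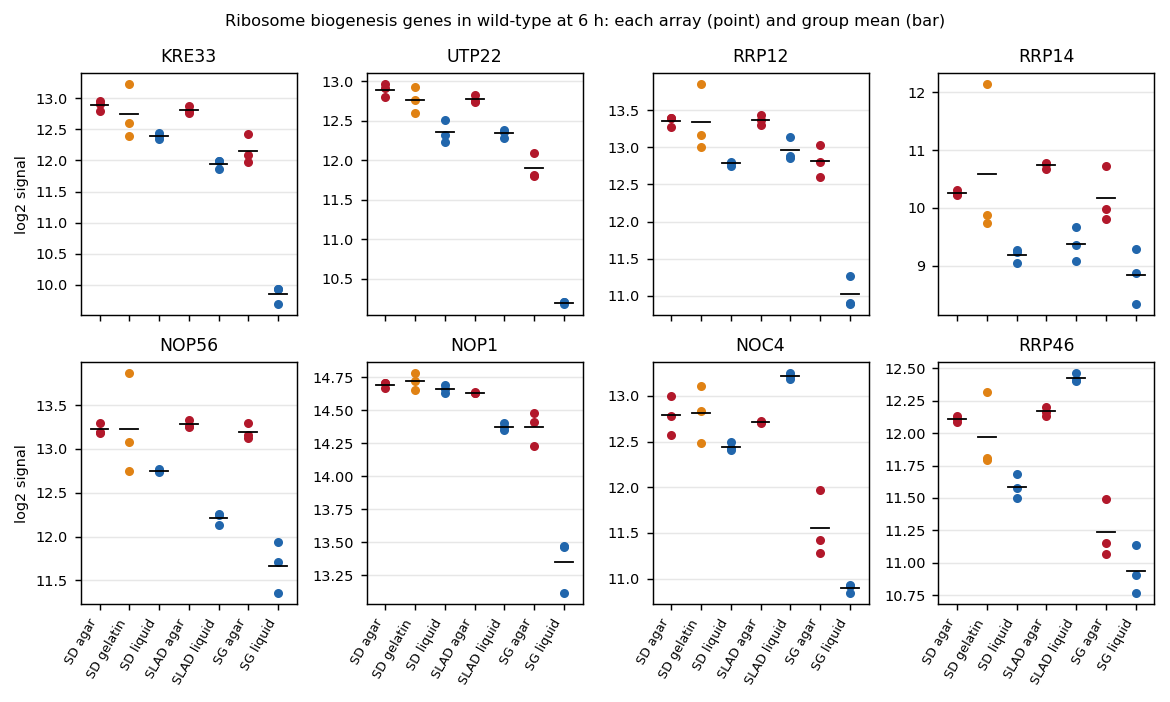
Log2 signal (y axis) of 8 of the genes on each wild-type array at 6 h (points), by nutrient and substrate (x axis), with a black bar at the group mean. KRE33, UTP22 and RRP12 are lowest on the SG liquid arrays, whereas NOC4 and RRP46 are highest in SLAD liquid, and gelatin array A stands high in RRP14 and NOP56.

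The 3 agar comparisons share no array. In SD, SLAD and SG alike, 41 of the 68 genes rose on agar in wild-type cells, as did 14% of all genes. Every member rose in at least 1 of the 3, where 30.8%, 39.3% and 34.9% of all genes rose in each, in that order. The share of all genes that rose in at least 1 is not given. The size of the agar change was compared between media with an interaction in the same fit. It differed between SG and SD for 37 members, all with the larger rise in SG, where the same test passed for 23.4% of all genes as higher in SG and 24.3% as lower. The difference was 1.81 (SE 0.17) in KRE33, 1.5 (SE 0.23) in ENP1, a factor that leaves the nucleus with the small subunit, and 1.29 in NOP13. Of the 7 exosome genes, 1 passed. Between SLAD and SD the agar change differed for 8 members: 3 were higher (RRP17, NOP56 and NOP1) and 5 lower (NOC4, UTP30, RRP46, RRP4 and UTP10), where 24.6% of all genes were higher and 26.7% lower. Centring each array on its median made those counts 6 and 4, and quantile normalization 5 and 2. Between 4 and 5 members passed without SD agar array A, SLAD agar array C or SD liquid array C.

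In wild-type cells the members were lower in SG than in SD on both substrates. On agar, 43 genes fell and none rose in SG against SD, where 34.9% of all genes rose and 27.6% fell, with a median change of -0.57. In liquid, 60 fell and none rose, where 43.2% of all genes rose and 34.9% fell, with a median of -1.25. At least 2-fold falls were found in 43 members and in 12.3% of all genes. DHR2 had 8.35, 8.29 and 8.57 in SG liquid, against 11.11, 11.16 and 11.06 in SD liquid, a 6.53-fold reduction. ENP1 was reduced 5.65-fold, and the changes of UTP21 of UTP-B and UTP22 of UTP-C were -2.32 and -2.16. The lowest member of all on any array was RRP36, at 6.13 in SG liquid. On the arrays labelled PGAL1-FLO11 the member median averaged 11.38 in SG and 12.07 in SD on agar. In liquid it averaged 11.72 in SG and 11.42 in SD, the other way, and these differences were not tested.

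By role, in wild-type SG liquid against SD liquid, the 5 UTP-B genes all fell, with a median of -1.76. The 6 UTP-A genes all fell, with a median of -1.63. The 5 snoRNP genes fell with a median of -1.08, and NOP1 had 13.47, 13.46 and 13.11 in SG liquid, against 14.63, 14.69 and 14.66 in SD liquid. Of the exosome genes 6 of 7 fell, with a median of -0.65. The 8 members that did not pass were NOP16, NOP19, NOP53, RRP14, RRP15, RRP36, RRP43 and RRP7. Several of these vary much between replicates: RRP14 had 8.87, 8.33 and 9.29 in SG liquid, against 9.25, 9.26 and 9.04 in SD liquid.

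Other growth genes fell with them. In wild-type SG liquid against SD liquid, 11 of 15 RNA polymerase I genes fell and 2 rose, with RPA12 at -2.35 and RPA135 at -1.90. All 11 RNA polymerase III genes fell. Of the ribosomal protein genes, 122 of 128 fell, with a median of -0.53. All 20 stress genes rose, with a median of 4.16. Their median signal was 14.76 to 14.83 on the SG liquid arrays, against 10.21 to 10.55 on the SD liquid arrays. The SG values lie near the limit of 14.87 to 14.97 given above for NOP1. That limit ranks the probe sets within an array and is not a ceiling, since the highest value on any array was 15.63. Whether the change is understated was not tested. Among regulators, TOD6 fell by 2.02 and SFP1, an activator of these genes, by 0.84, whereas CRF1, a corepressor of ribosomal protein genes, rose by 2.29 and STB3, a repressor that binds RRPE sites, by 1.31. The part of the stress genes or of these regulators in the members' fall was not tested.

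Between SLAD and SD the changes were smaller. On agar no member changed between SLAD and SD (limma; none at an unadjusted p under 0.05), where 0.899% of all genes rose and 0.881% fell, and the median change was 0.15. A fit of those 6 arrays alone passed 20 members as higher and 1 as lower. In liquid, 14 rose and 5 fell in SLAD against SD, where 33.3% of all genes rose and 30.2% fell, and the median change was 0.19. On their own arrays, 29 rose and 9 fell.

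In SLAD liquid against SD liquid both counts of members lay below the shares of all genes. The genes that rose most were UTP30, 1.99-fold, RRP46 at 0.84 (SE 0.12), NOC4 at 0.77 (SE 0.16), RRP4 at 0.74 and UTP7 at 0.65. Those that fell were NOP56 at -0.54, KRE33 at -0.45, RRP5, a factor of both subunits, at -0.36, NOP1 at -0.29 and RRP42 at -0.24. NOP56 had 12.25, 12.13 and 12.26 in SLAD liquid, against 12.74, 12.74 and 12.77 in SD liquid. Within the exosome, RRP4, RRP46 and RRP6, its nuclear nuclease, rose while RRP42 fell. In the same comparison 117 of 128 ribosomal protein genes fell and 3 rose, with a median of -0.33, and 18 of 20 stress genes rose, with a median of 2.26.

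**Figure D3:**
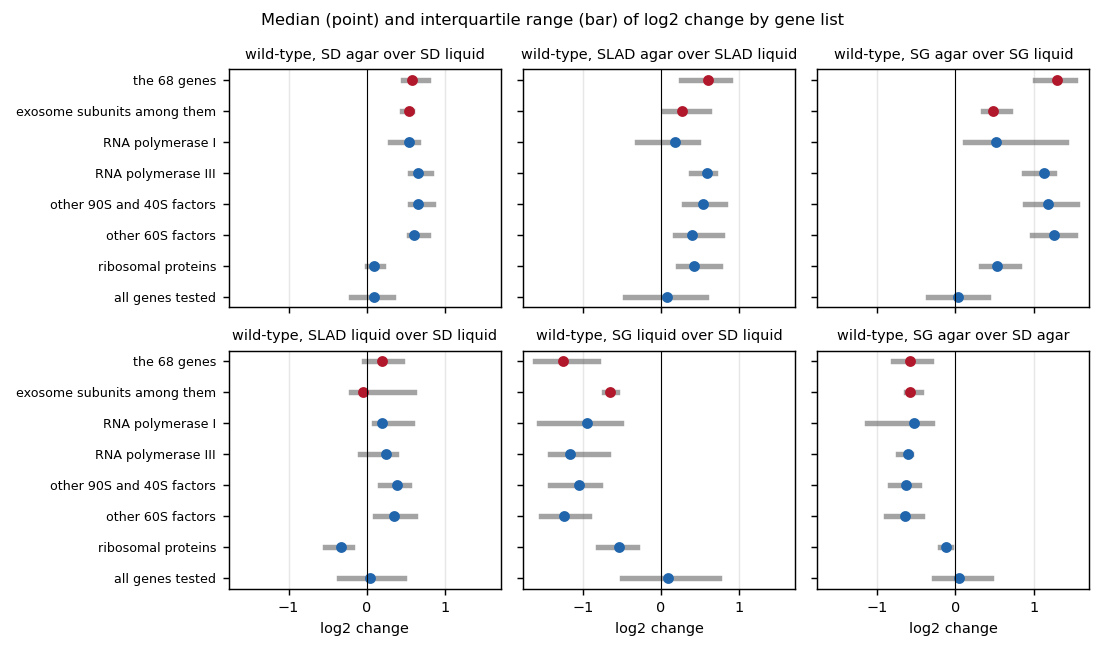
Median log2 change (point) and interquartile range (bar) of 8 gene lists (y axis) in 6 wild-type comparisons (panels), on the log2 scale of the x axis, with red for the 68 genes and for the exosome genes among them and blue for other lists. The 68 genes lie at 0.58, 0.60 and 1.29 on agar over liquid in SD, SLAD and SG, and in SLAD liquid over SD liquid they lie at 0.19 while ribosomal protein genes lie at -0.33.

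Few members differed between 6 h and 0 h. Titles of the SD liquid arrays at 0 h carry a b that those at 6 h lack, and its meaning is not given. At 6 h against 0 h on SD agar, 1 gene rose and none fell, where 10.2% of all genes rose and 11.9% fell, and the median change was 0.18; 7 members were higher at an unadjusted p under 0.05. That gene was NOP9, an RNA-binding factor of the small subunit, with 11.75, 11.75 and 11.58 at 6 h, against 11.29, 11.08, 11.09, 11.39, 11.09 and 11.14 at 0 h. All 6 h arrays lay above all 0 h arrays. Without 6 h array A or B no member passed, and without 0 h array A or D 3 did; the 9 arrays fitted alone passed 15 members, all as higher. In SD liquid, 4 genes rose and 10 fell at 6 h against 0 h, where 20.3% of all genes rose and 35.5% fell, and 9 passed without array C of either time. The median of all genes was -0.12 there, and centring each array on its median moved it to 0.03 and the members' counts to 11 higher and 5 lower. UTP18 rose by 0.62 and RRP42 by 0.47, and NOP13, NOP7, NOP2, a methyltransferase of 25S rRNA, RRP5 and RRP6 fell by 0.47 to 0.52 as deposited.

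Across strains in SD the agar change was mostly positive, and the number of members that passed varied. Differing counts are not a test of a difference between strains. Counting wild-type, 10 strains by label have an agar and a liquid group in SD, with no array in common. Among them are the arrays labelled PGAL1-FLO11 in SD, where FLO11 did not follow GAL1. The counts without those arrays are not given. NOP7 and NOP10, a core protein of box H/ACA snoRNPs, rose on agar in 9 of the 10, and NOP6, an RNA-binding factor of the small subunit, in 7. NOP1 rose in none, and ENP1, RRP3, UTP21, UTP25, UTP5 and RRP17 in 1. In all, 22 of 68 members rose in 5 or more of the 10 strains, as did 13.5% of all genes. A positive change in at least 9 strains was found in 43 members, and the share of all genes for that count is not given.

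Strains with an altered MAP kinase pathway or adhesin gave these counts. In Kss1K42R, 34 rose and none fell (of all genes 20.1% rose and 23.3% fell), with a median of 0.46, and in the tec1 knockout 29 rose and none fell (18.2% and 23.3% of all genes), with a median of 0.41. On the arrays labelled PGAL1-FLO11 in SD, 58 rose and none fell (20.8% and 21.7% of all genes), with a median of 0.59. In the flo11 knockout, 11 rose and none fell (12.1% and 19.4% of all genes), with a median of 0.17. The agar change of no member differed between the flo11 knockout and wild-type (limma; 16 were lower at an unadjusted p under 0.05; of all genes 5.6% were higher and 11.9% lower). The median of that difference was -0.44 over the members and -0.14 over all genes, and over all genes it was -0.02 after median centring. With the replicate letter as a block, fitted on the 12 arrays compared, 18 members were lower and none higher; the letters paired the flo11 knockout agar and liquid arrays but not the wild-type ones. Nor did any differ in Kss1K42R (limma; 1 higher and 4 lower at an unadjusted p under 0.05; 1.49% of all genes higher and 5.21% lower), and in the tec1 knockout 1 did, UTP20 at -0.41 (SE 0.13, adjusted p = 0.038; 2.4% of all genes higher and 8.07% lower), and none passed when any 1 of 10 of the arrays was left out or with median centring.

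Single arrays decided several of these counts. Without agar array C, liquid array B or liquid array C of Kss1K42R, 20, 22 and 16 genes rose there; without agar array A or liquid array C of the tec1 knockout, 18; and without liquid array A of PGAL1-FLO11 in SD, 28. Without agar array B, agar array C or liquid array B of the flo11 knockout, 7, 6 and 4 members rose there, and without liquid array B 8 were lower in the difference from wild-type. NOP7 had 11.79, 11.88 and 11.90 on agar in the flo11 knockout, against 11.18, 11.08 and 11.52 in liquid, without overlap, and in this strain its change was 0.60 (SE 0.20). On agar itself, no member passed the limma test against wild-type in Kss1K42R, the tec1 knockout or the flo11 knockout. None had an unadjusted p under 0.05 in any of the 3. Of all genes, 1.23%, 1.41% and 0.459% were higher and 4.59%, 5.27% and 0.587% lower, in that order. The test pools the spread of all arrays, also of those that stood apart, so it cannot show that the levels were equal.

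The counts in the plasmid strains ranged widely. Titles of the pRS313 and pRS313-STE11-4 liquid arrays carry a b that those of their agar arrays lack, and its meaning is not given. With pRS313-STE11-4, 10 genes rose and none fell (of all genes 15.5% rose and 16.4% fell), and with pRS313 alone 3 rose, NOP7, UTP20 and NOP10, and none fell (5.85% and 14.1%), with medians of 0.35 and 0.27. With pRS316-MSB2*, 8 rose and 1, RRP42, fell (of all genes 7.67% rose and 10.1% fell), and with pRS316 alone 36 rose and none fell (18.7% and 23.4%), with medians of 0.20 and 0.49. The member median of STE11-4 liquid array C was 11.06, against 11.90 and 11.93 on arrays A and B, and without it none of the 68 passed in STE11-4 (limma). Without agar array A, B or C 2, 3 and 6 passed there, and without liquid array A or B 20 and 25. With pRS313 alone, 1 rose without any 1 of 5 of its 6 arrays. Without pRS316 agar array A, 20 rose with pRS316, and without MSB2* liquid array A, 3 rose and 1 fell with MSB2*. No agar change differed between STE11-4 and pRS313 or between MSB2* and pRS316 (limma; 1 and 3 lower at an unadjusted p under 0.05; 2.2% and 1.08% of all genes higher, 2.35% and 0.642% lower). On agar, none differed between STE11-4 and pRS313 (limma; 1 lower at an unadjusted p under 0.05; 2.7% of all genes higher and 0.973% lower). UTP22 and UTP20 were lower with MSB2* than with pRS316, with changes of -0.45 and -0.30 (6.68% of all genes higher and 2.9% lower). None passed there without MSB2* agar array A or C, 4 without B, and 1 without pRS316 agar array A or B.

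**Figure D4:**
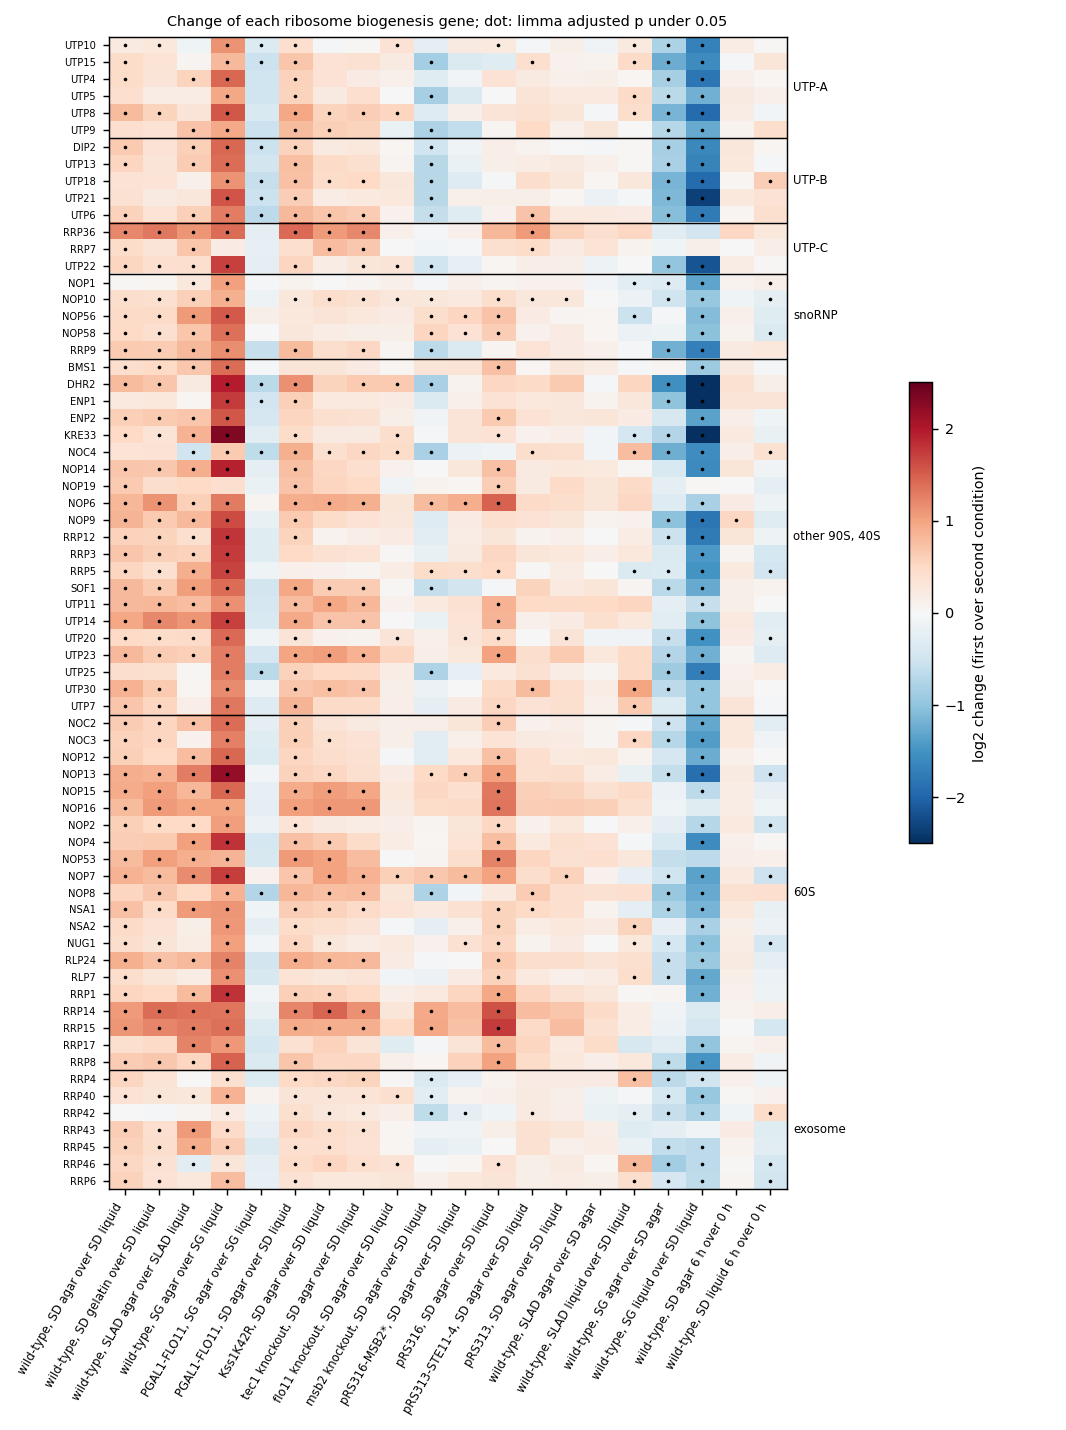
Log2 change of each of the 68 genes (rows, by role) in 20 comparisons (columns), with red for higher and blue for lower in the condition named before "over", and a black dot where the limma adjusted p is under 0.05. Red columns for agar over liquid contrast with the PGAL1-FLO11 strain in SG, where 11 genes fell, as did 10% of all genes. In the msb2 knockout 9 rose and 18 fell, near the shares of all genes, 19.8% and 21.8%. Without its agar array C, more members rose than fell there.

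In the msb2 knockout, on agar against liquid, 9 members rose and 18 fell, where 19.8% of all genes rose and 21.8% fell, so both counts lay near the shares of all genes. All 5 UTP-B genes fell, with a median of -0.69, and the largest falls were UTP15 at -0.85, UTP5 at -0.83, DHR2 at -0.81, NOC4 at -0.81 and UTP9 at -0.78. RRP15, RRP14, NOP6, NOP7 and NOP58 rose most. The 3 agar arrays were far apart: DHR2 had 11.46, 10.85 and 9.17 on agar, against 11.30, 11.31 and 11.31 in liquid. The median of the 68 was 12.12, 11.69 and 10.83 on agar arrays A, B and C, while that of the stress genes was 9.56, 10.88 and 12.47. Without array C, 17 members rose and 3 fell.

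Against pRS316 the msb2 knockout on agar had 9 lower members and no higher one, where 4.9% of all genes were higher and 7.25% lower, led by DHR2 at -1.09 (SE 0.25). Its agar change was lower than that of pRS316 for 11 members, DHR2, NOP12 and UTP25 most, where 5.07% of all genes were higher and 2.64% lower. On agar, 35 members were lower without msb2 array A, none without array C, and 2 and 1 without pRS316 array A or B. In the agar change, 45 were lower without msb2 agar array A, and 1 to 7 without msb2 agar array C, any msb2 liquid array, or array A or B of pRS316 on agar or in liquid. With wild-type in place of pRS316, a comparison added after the URA3 values were seen, 30 members were lower on agar and none higher (of all genes 17.7% were higher and 13.9% lower), and 38 had a lower agar change and none a higher one (8.11% and 15%).

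In SG liquid the PGAL1-FLO11 strain had far higher levels than wild-type. All 68 members were higher in PGAL1-FLO11 than in wild-type in SG liquid, where 33.2% of all genes were higher and 32% lower, with a median of 1.57. At least 2-fold higher were 59 members and 9.07% of all genes. DHR2 had 11.17, 10.89 and 10.94 in PGAL1-FLO11, against 8.35, 8.29 and 8.57 in wild-type, and KRE33 had 12.41, 12.22 and 12.37, against 9.93, 9.93 and 9.69. ENP1 was higher by 2.19 and RRP7 by 0.41, the smallest difference. In the same comparison 18 of 20 stress genes were lower, with a median of -2.11, and 125 of 128 ribosomal protein genes were higher.

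On SG agar no member differed between the strains (limma; none at an unadjusted p under 0.05; of all genes 1.19% were higher and 0.642% lower), with a median of -0.01. DHR2 had 10.19, 10.36 and 10.41 in PGAL1-FLO11, against 10.92, 10.31 and 9.85 in wild-type, and the strains overlapped. Within PGAL1-FLO11 in SG, no gene rose on agar against liquid and 11 fell, where 11.7% of all genes rose and 10% fell, with a median of -0.31. NOP8, a large subunit factor, fell by 0.72, DHR2 by 0.68 and UTP25 by 0.67, and 4 of 5 UTP-B genes fell. Without agar array A, B or C 3, 6 and 7 fell, and without liquid array A 2. The difference of the agar change between the strains in SG was not tested. In SG liquid FLO11 averaged 15.19 in PGAL1-FLO11 and 14.73 in wild-type, and on SG agar 15.21 and 14.76.

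Position in the genome was examined for what the symbol rule did not use. In the RefSeq gene table of the R64 assembly, 7 of the 68 genes (10.3%) are direct neighbours of another ribosome assembly gene, against 6.10% of all 6021 protein-coding genes. They form 6 pairs, of which NSA2 with LCP5 on chromosome V and RRP3 with SSF1 on chromosome VIII are divergent, so that both genes start from the same intergenic region. RRP15 and NOC4, on chromosome XVI, are the only pair of members and are convergent. On SLAD agar against SLAD liquid RRP15 rose by 1.31 and NOC4 fell by 0.50. The pair went opposite ways only in SLAD among the wild-type media. Both genes rose on agar in SG. RRP15 also rose in SD, where NOC4 did not pass the test, although all its agar arrays lay above all its liquid arrays. Whether position plays a part in these changes was not tested.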

How the data were processed

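The log2 signals were used as deposited; the authors made them with RMA, per the submitters' processing notes, for 10928 probe sets on 90 arrays. For RMA, neither a version nor settings were stated in the labels. The platform annotation names 1 gene for 7244 probe sets, of which 5498 belong to S. cerevisiae. Each gene kept its brightest probe set, which left 5449 genes. The background limit of an array, the 95th percentile of the probe sets of another yeast, was 5.72 to 6.33. Arrays hold no molecule counts, so their number limits precision.

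All 90 arrays entered a single limma model (version 3.58.1, R 4.3.3) with a mean for each group, which left 61 residual degrees of freedom and added 2.88 from the prior. Moderated p values were 2-sided, and Benjamini-Hochberg adjustment ran within each of 37 comparisons over 5449 genes. The fit of wild-type SD agar against SD liquid was tested on simulated data. The members, the gene lists and the rule for named genes were chosen with earlier results of these data known. That rule takes the 5 largest called changes in each direction, the 3 smallest, fixed representatives, exosome genes, extremes and leading genes of other lists, and a few further members were named after their values were seen. Alternatives were quantile normalization, median centring, leaving out the dimmest 25% of genes, averaging probe sets, fitting only the arrays compared, a replicate block, and leaving out each array. The replicate letters paired samples in 1 of 29 comparisons, flo11 knockout agar and liquid, where the deviations of letters A, B and C correlated at 0.13, 0.26 and 0.30. Promoter and protein sequences were not used here.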

Additional observations from a re-analysis of the deposited data

Results flagged for a closer look

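These results are differences of the agar change between conditions that passed their own test, an interaction in the same limma fit. Between SG and SD in wild-type, 37 members differed, all with the larger agar change in SG, against 23.4% of all genes in that direction. Between SLAD and SD, 8 differed, 3 upward and 5 downward, fewer in both directions than the 24.6% and 26.7% of all genes would give. Between the msb2 knockout and pRS316, 11 differed, all downward, against 2.64% of all genes, and the msb2 agar arrays spread widely. Between the tec1 knockout and wild-type, 1 differed, UTP20, downward, a share below the 8.07% of all genes, and none passed with median centring or without any 1 of 10 of the arrays. Among the 6 arrays of SD agar at 0 h, 2 of 68 members had a gap past the 95% critical value of Dixon's test (0.625); chance flags about 1 in 20 groups.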

How the results depend on the processing

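The members that passed were counted again under each alternative, and counts not given here stayed within 1.5 times. With a replicate block, fitted on the arrays compared, agar against liquid passed 56 in Kss1K42R, 57 in the tec1 knockout, 42 with pRS313, 21 with MSB2*, 0 with STE11-4 and 6 in the msb2 knockout, where 4 rose and 2 fell, so the balance reversed; gelatin against liquid passed 0. The block passed 4 for Kss1K42R and 1 each for the tec1 and flo11 knockouts against wild-type on agar, 2 for STE11-4 against pRS313, and 0 for MSB2* and the msb2 knockout against pRS316. For differences of the agar change it passed 11 in Kss1K42R, 14 in the tec1 knockout, 18 in the flo11 knockout, 0 in the msb2 knockout and 26 between SLAD and SD. It passed 19 and 23 for 6 h against 0 h on agar and in liquid, and 17 and 41 for SLAD against SD on agar and in liquid. Fitting only the arrays compared passed 15 and 29 for time on agar and in liquid, 21 and 38 for SLAD against SD, and 0 for gelatin against liquid. The labels do not say what the letters mark, and only for flo11 agar and liquid did all 3 letters correlate over 0.1, so the block counts were not read as larger or smaller effects. Median centring passed 0 for the tec1 difference, 10 for SLAD minus SD (6 higher, 4 lower), 7 with pRS313, 3 for time on agar and 16 for time in liquid (11 higher, 5 lower), and quantile normalization 7 for SLAD minus SD (5 higher, 2 lower); these 3 counts with both directions given reversed the balance. Without the dimmest 25% of genes, 5 passed for the msb2 knockout against pRS316 and 2 for time on agar. With wild-type in place of pRS316, chosen after seeing the data, 30 passed for msb2 on agar and 38 for its agar change. Leaving out 1 array at a time, agar against liquid gave 16 to 34 in Kss1K42R, 18 to 24 in the tec1 knockout, 4 to 8 in the flo11 knockout, 20 to 30 in the msb2 knockout, 20 to 39 with pRS316, 1 to 2 with pRS313, 0 to 25 with STE11-4, 4 to 9 with MSB2*, 28 to 63 in PGAL1-FLO11 in SD and 2 to 10 in SG. It gave 0 to 38 for agar against gelatin, 6 to 55 for gelatin against liquid, 0 to 3 and 9 to 12 for time on agar and in liquid, 0 to 35 for the msb2 knockout and 0 to 4 for MSB2* against pRS316. Differences of the agar change gave 4 to 7 between SLAD and SD, 0 to 1 in the tec1 knockout, 0 to 8 in the flo11 knockout and 1 to 45 in the msb2 knockout. On agar against gelatin the change of BMS1 then ran from -0.35 to 0.52 and that of NOP56 from -0.25 to 0.31, and on gelatin against liquid that of BMS1 ran from -0.075 to 0.80 and that of RRP5 from -0.014 to 0.60, with the sign turned without gelatin array A. Except where a sentence names what was left out, the cause was not tested.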

Other observations

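The members of the set differ in how steady they are between replicates. Over all groups, the pooled SD within groups was 0.07 for NOP1, 0.11 for UTP10, UTP20, RRP40 and RRP42 and 0.12 for NOP10. It was 0.42 for RRP14, RRP15 and NOP53 and 0.45 for RRP36. These SDs include arrays that stood apart, such as gelatin array A, where NOP53 had 12.13, against 9.76 and 10.08 on B and C. In the 6 arrays of SD agar at 0 h, part of the spread lay between 2 sets of arrays. RRP14 had 9.85, 9.56 and 9.88 on arrays A to C and 10.89, 10.63 and 10.21 on arrays D to F. NOC4 had 12.80, 12.78 and 12.77 on A to C and 12.39, 12.46 and 12.52 on D to F, so the 2 sets of arrays stood apart in opposite directions for these genes.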
